A study of Homo sapiens with 8 samples.

Results

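The genes of sterol and fatty acid synthesis, with the SREBP proteins that control them and a few carriers and LXR targets of sterol handling, were followed in the RNA-seq of HEK293T cells, a human embryonic kidney line. The 34 genes were chosen by name for their known roles, with earlier results of these data known. All 34 of 34 were present in the files among 19770 genes. They passed the filter of at least 1 CPM (counts per M reads) in at least 2 libraries, as did 15122 genes in all. Every group was harvested 72 h after transient transfection with a pool of gRNAs to the *HBG1* and *HBG2* promoters, so that each culture is a mixed population of transfected cells, and each of the 4 groups held 2 libraries. The control received dCas9 with MCP-mCherry, a fusion with no activation domain. CRISPR-DREAM cells received dCas9 with MCP-MSN, a fusion of human activation domains. The SAM system was dCas9-VP64 with MCP-p65-HSF1. These groups carried gRNAs with MS2 hairpins. The dCas9-VPR fusion was used without an MCP protein and with gRNAs lacking the hairpins, so those differences from the control cannot be told apart from the effect of the activation domains.

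Cells build cholesterol from acetyl-CoA. The mevalonate steps make isoprenoid units, farnesyl diphosphate is joined into squalene, squalene is closed into lanosterol, and a series of demethylations, reductions and isomerisations turns lanosterol into cholesterol. The SREBP transcription factors are held in the endoplasmic reticulum by SCAP and INSIG proteins while sterol is plentiful, and when it falls they are released to switch on these enzymes, SREBP-2 acting more on sterol genes and SREBP-1 more on fatty acid genes. The LXR receptors act in the opposite situation and raise genes of cholesterol export.

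The windows of RefSeq (GRCh38.p14) from 250 bases before to 50 bases after the annotated start were matched by symbol for 30 of the 34 genes, taking the start nearest the 5′ end in the files. *ACAT2*, *FDFT1*, *SQLE* and *FASN* were not matched. The start used lay far from that 5′ end for *FADS2* (23223 bases), *FADS1* (12316 bases), *ACLY* (11521 bases) and *DHCR7* (3826 bases). It also lay away from it for *SCAP* (1186 bases), *ELOVL6* (585 bases), *MVK* (539 bases) and *CYP51A1* (327 bases). For tested genes outside the 34, the first listed window was taken, not the nearest. Some genes have several windows among all those searched, so the shares compared below rest on windows picked by different rules. Both strands were searched for 4 short motifs, none of which contains another. The CCAAT box (CCAAT) was in 19 of 30 windows (63.3%), in 34.6% of all 35116 windows and in 36.7% of the 10984 windows of tested genes. The GC box (GGGCGG) was in 27 of 30 windows (90.0%), in 45.0% of all windows and in 71.1% of those of tested genes. An E-box (CACGTG) was in 5 of 30, the windows of *ABCA1*, *INSIG1*, *LSS*, *SC5D* and *SCAP*, and in 7.26% of all and 10.1% of tested-gene windows. The sterol regulatory element in the form TCACNCCAC was in 1 of 30, that of *SREBF2*, and in 1.13% of all and 0.974% of tested-gene windows. These are matches of letters, not binding sites, and the lack of a match says only that these letters were not in that window.

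The 250 bases before the start are shown for the 5 genes that were lower than the control in dCas9-VPR cells, for *TM7SF2*, the gene of the sterol synthesis steps that was higher, and for *SREBF2*, which holds the one sterol regulatory element. Capitals mark matches of the CCAAT box, the E-box and the sterol regulatory element on either strand, so that ATTGG is a CCAAT box on the other strand, and each sequence runs 5′ to 3′ on the strand of its gene. *MVK* lies at chr12:109573544-109573793 (plus strand), *MVD* at chr16:88663092-88663341 (minus strand), *IDI1* at chr10:1049120-1049369 (minus strand), *NSDHL* at chrX:152830813-152831062 (plus strand), *SC5D* at chr11:121292521-121292770 (plus strand), *TM7SF2* at chr11:65111622-65111871 (plus strand) and *SREBF2* at chr22:41832855-41833104 (plus strand). The RefSeq start used for *MVK* lies 539 bases inside the gene's 5′ end in the files, while the other starts shown lie within 96 bases of it.
MVK: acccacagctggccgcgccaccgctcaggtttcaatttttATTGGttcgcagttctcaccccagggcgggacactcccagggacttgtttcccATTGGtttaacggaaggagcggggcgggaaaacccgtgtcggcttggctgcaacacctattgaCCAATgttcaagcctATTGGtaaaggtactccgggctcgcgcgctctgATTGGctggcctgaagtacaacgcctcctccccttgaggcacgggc
MVD: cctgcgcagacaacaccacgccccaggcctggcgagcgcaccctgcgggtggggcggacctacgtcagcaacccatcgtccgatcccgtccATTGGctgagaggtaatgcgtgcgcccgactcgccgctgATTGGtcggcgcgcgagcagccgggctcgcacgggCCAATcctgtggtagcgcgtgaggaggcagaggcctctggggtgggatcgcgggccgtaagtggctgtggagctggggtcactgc
IDI1: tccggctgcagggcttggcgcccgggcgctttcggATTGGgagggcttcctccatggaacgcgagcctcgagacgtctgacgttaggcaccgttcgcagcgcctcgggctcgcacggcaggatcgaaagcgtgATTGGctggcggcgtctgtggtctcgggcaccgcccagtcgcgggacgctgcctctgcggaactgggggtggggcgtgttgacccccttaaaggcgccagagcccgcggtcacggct
NSDHL: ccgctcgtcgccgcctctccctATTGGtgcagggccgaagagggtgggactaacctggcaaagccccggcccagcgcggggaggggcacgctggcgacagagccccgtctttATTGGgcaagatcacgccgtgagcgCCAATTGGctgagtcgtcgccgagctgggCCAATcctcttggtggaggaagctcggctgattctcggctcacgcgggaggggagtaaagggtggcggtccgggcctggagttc
SC5D: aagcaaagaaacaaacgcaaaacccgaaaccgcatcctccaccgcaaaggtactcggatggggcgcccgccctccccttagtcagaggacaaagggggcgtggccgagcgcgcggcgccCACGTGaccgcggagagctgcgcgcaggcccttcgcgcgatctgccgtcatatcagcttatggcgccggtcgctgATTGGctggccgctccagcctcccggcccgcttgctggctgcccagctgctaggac
TM7SF2: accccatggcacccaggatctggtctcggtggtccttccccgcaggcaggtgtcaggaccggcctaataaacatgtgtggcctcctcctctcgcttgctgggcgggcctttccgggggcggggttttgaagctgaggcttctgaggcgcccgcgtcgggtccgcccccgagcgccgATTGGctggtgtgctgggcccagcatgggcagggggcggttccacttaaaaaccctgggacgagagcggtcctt
SREBF2: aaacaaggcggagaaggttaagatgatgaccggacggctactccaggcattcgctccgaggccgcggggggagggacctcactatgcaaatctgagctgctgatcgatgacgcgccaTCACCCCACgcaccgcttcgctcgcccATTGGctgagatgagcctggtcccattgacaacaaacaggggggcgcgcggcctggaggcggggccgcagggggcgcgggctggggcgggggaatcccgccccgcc
The *MVK* and *NSDHL* windows each hold 5 CCAAT boxes, of which 2 in *NSDHL* share bases on opposite strands, the *MVD* window 3 and the *IDI1* window 2. The window of *SC5D* and that of *TM7SF2* hold 1 each. In *SREBF2*, TCACCCCAC begins 133 bases before the start and a CCAAT box on the other strand 106 bases before it.

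The libraries differed little in depth, which was estimated from the steps between low CPM values at 28.4 to 35.1 M reads. A count of 3 reads was then worth 0.0854 to 0.106 CPM, and the lowest value of any of the 34 genes was 1.89 CPM. The labels held for the targeted locus, where the gRNAs were directed to the promoters of both *HBG1* and *HBG2*. *HBG2* measured 1.29 and 0.838 CPM in the control, 2187 and 2874 CPM in CRISPR-DREAM, 707 and 860 CPM in SAM and 218 and 201 CPM in dCas9-VPR. *HBG1* was far lower, at 0.0001 CPM in both control libraries, 7.42 and 12.7 CPM in CRISPR-DREAM, 2.56 and 3.33 CPM in SAM and 0.385 and 0.548 CPM in dCas9-VPR. All 6 markers of the line were present and summed to 86.4 to 106 CPM. Of markers that the line should lack, 1 of 4 hepatocyte genes (*APOA1*, 0.0634 to 0.313 CPM) and 3 of 4 fibroblast genes were in the files. The fibroblast genes summed to 2.14 to 2.35 CPM in the control, 0.854 to 1.90 CPM in CRISPR-DREAM, 3.89 to 5.66 CPM in SAM and 0.744 to 1.16 CPM in dCas9-VPR. Their part in the results was not tested. In bulk RNA, fewer cells that express a gene and less RNA per cell cannot be told apart.

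Per kilobase of exon, the control levels of the 34 genes ranged from 0.186 CPM per kb for *ABCA1* to 97.0 CPM per kb for *SCD*. *ACLY* (64.9 CPM per kb), *FDPS* (62.5 CPM per kb), *PMVK* (61.1 CPM per kb) and *EBP* (56.5 CPM per kb) followed *SCD*. The least expressed synthesis enzymes were *ELOVL6* at 2.46 and *MVK* at 3.52 CPM per kb. The summed CPM of all 34 genes was 3563 and 3523 in the control, 3439 and 3365 in CRISPR-DREAM, 3338 and 3331 in SAM and 3682 and 3754 in dCas9-VPR. On this scale neither CRISPR-DREAM nor SAM overlapped the control, both being below it, and dCas9-VPR lay above it. As a percentage of the control mean these sums were 96.0%, 94.1% and 105%. Median-of-ratios scaling divides each library by a factor, here 0.967 and 0.943 for the control and 0.9996 and 0.988 for dCas9-VPR. It would bring the dCas9-VPR sums nearer to the control, so their place above it depends on the scaling.

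**Figure D1:**
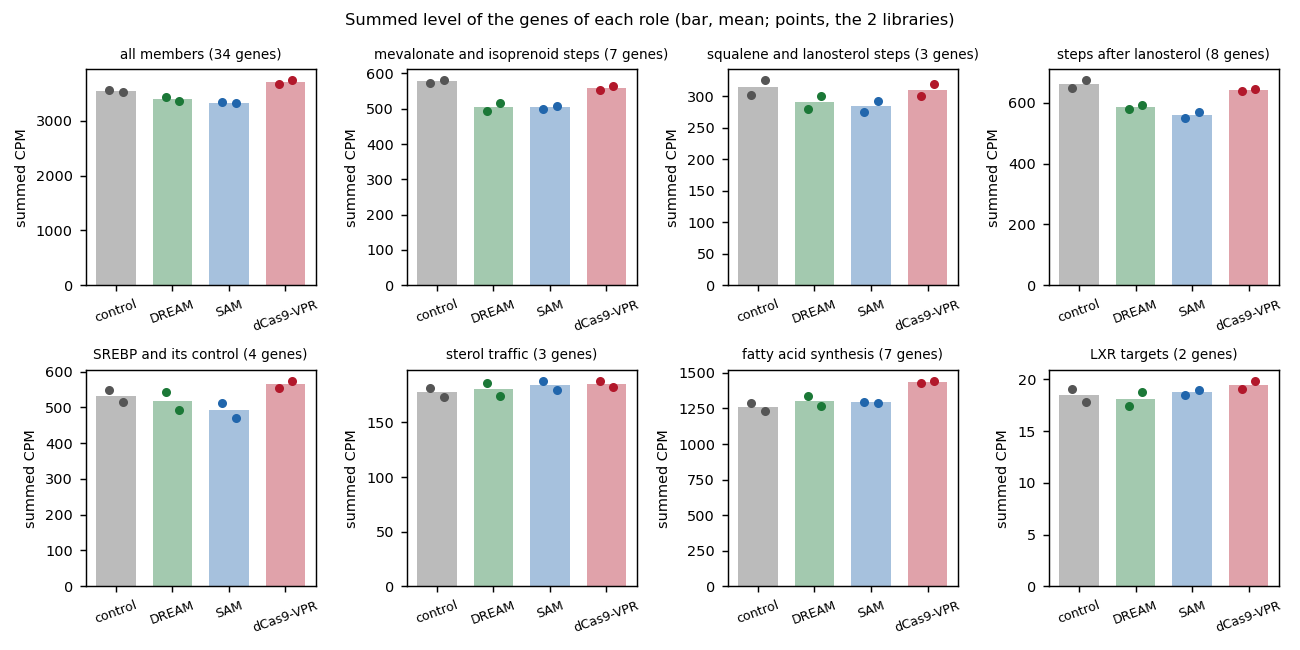
Summed CPM (y axes, each from 0) of all 34 genes and of the genes of each role in the control, CRISPR-DREAM, SAM and dCas9-VPR (x axes), with bars for the mean and points for the 2 libraries. The sums, which were not tested, stood for the steps after lanosterol at 88.3% of the control mean in CRISPR-DREAM and 84.4% in SAM, and for the mevalonate steps at 87.6% and 87.3%, while fatty acid synthesis stood at 114% in dCas9-VPR.

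Differences were tested with limma on log2(CPM + 0.5), and a gene was called higher or lower at a false discovery rate (FDR) below 0.05 over all 15122 genes. Adjusted p values are from that fit, fold changes are on that scale, errors are SE, and n = 2 libraries a group. The labels do not say whether the 2 libraries of a group came from separate cultures, so p values measure only the spread between these libraries. An exact two-sided permutation test of 2 against 2 libraries cannot go below p = 0.333. The 3 comparisons with the control share the same control libraries and are not independent of each other.

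In CRISPR-DREAM cells 8 of the 34 genes were lower than in the control and 5 were higher, where 9.25% and 18.8% of all tested genes were. The lower genes were *MVK*, *MVD*, *IDI1*, *NSDHL*, *HSD17B7*, *SC5D*, *INSIG1* and *STARD4*, and the higher genes were *TM7SF2*, *NPC1*, *ACLY*, *ACACA* and *FADS2*. Both CRISPR-DREAM libraries lay below both control libraries for 17 of 34 genes (22.8% of all tested genes) and above them for 6 (38.3%). The median log2 fold change of the 34 genes was -0.11, beside 0.06 for all tested genes. At the study's threshold, a fold change above 2 with an FDR below 0.05, limma called 0 of the 34 genes and 2.55% of all tested genes, while an unadjusted p was under 0.05 for 13 lower and 6 higher members. With median-of-ratios scaling the split became 15 lower and 3 higher, and without control replicate 2 only 4 lower and 1 higher were called.

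In SAM cells 12 of the 34 genes were lower and 5 were higher, beside 8.89% and 35.7% of all tested genes. The lower genes were *ACAT2*, *MVK*, *PMVK*, *MVD*, *IDI1*, *NSDHL*, *HSD17B7*, *SC5D*, *DHCR7*, *INSIG1*, *TMEM97* and *FADS1*. The higher genes were *ABCA1*, *NPC1*, *ACLY*, *ACACA* and *FASN*. Both SAM libraries lay below both control libraries for 21 of 34 genes (19.2% of all tested genes) and above them for 8 (55.3%). *ABCA1* was the 1 of 34 genes past a fold change of 2 with an FDR below 0.05, a threshold that 4.34% of all tested genes passed. The median log2 fold change of the 34 genes was -0.11, that of all tested genes was 0.16, and median-of-ratios scaling brought the latter to 0.02, so the SAM changes of the higher genes are also given relative to the all-gene median, from which each lower gene lies farther by 0.16. With that scaling 22 genes were lower and 2 higher. Without control replicate 2 the counts were 7 lower and 2 higher, and without SAM replicate 1 they were 8 lower and 2 higher.

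In dCas9-VPR cells 5 of the 34 genes were lower and 5 were higher, beside 6.68% and 11% of all tested genes. The lower genes were *MVK*, *MVD*, *IDI1*, *NSDHL* and *SC5D*, and the higher genes were *TM7SF2*, *ACLY*, *ACACA*, *FASN* and *FADS2*. Both dCas9-VPR libraries lay below both control libraries for 9 of 34 genes (23.8% of all tested genes) and above them for 15 (41.1%), and the median log2 fold change was 0.03 beside 0.06 for all tested genes. No member passed a fold change of 2 with an FDR below 0.05 (limma, 0 of 34, beside 1.1% of all tested genes), and an unadjusted p was under 0.05 for 5 lower and 6 higher members. Under median-of-ratios scaling the split was 5 lower and 3 higher. The calls rested on few libraries, since 6 were left without control replicate 1, 1 without control replicate 2, 1 without dCas9-VPR replicate 1 and 3 without dCas9-VPR replicate 2.

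**Figure D2:**
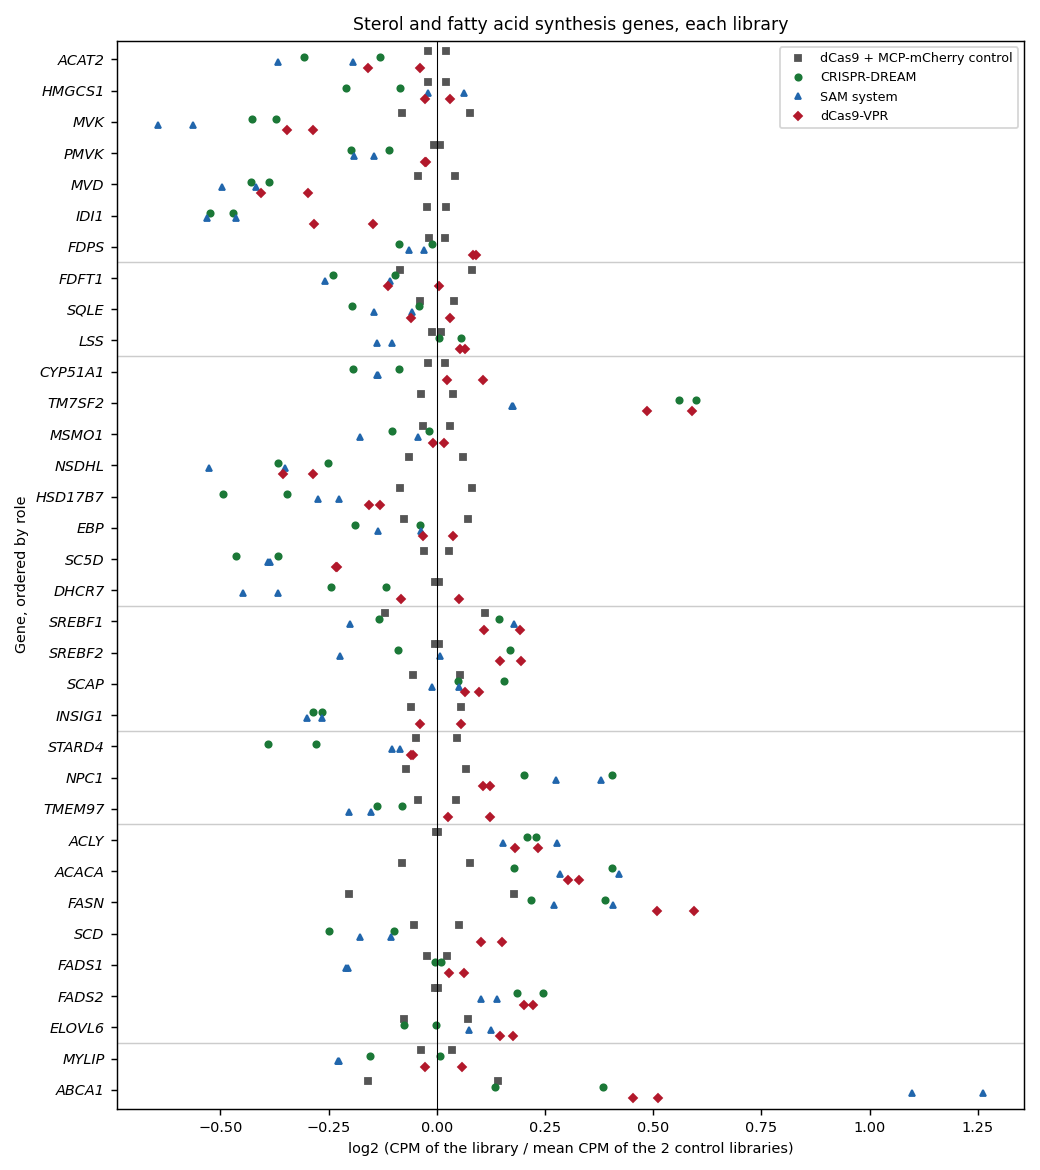
Each gene (y axis, in the order of its role) in each of the 8 libraries, as the log2 ratio of its CPM to the mean CPM of the 2 control libraries (x axis). Grey squares are the control, green circles CRISPR-DREAM, blue triangles SAM and red diamonds dCas9-VPR, and the points of *MVK*, *MVD*, *IDI1*, *NSDHL* and *SC5D* lie left of the control in each of the 6 activator libraries.

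The mevalonate and isoprenoid steps were the role with the most lower calls in SAM (5 of 7, with 3 of 7 in CRISPR-DREAM and 3 of 7 in dCas9-VPR). The shares of all tested genes called lower were 8.89% in SAM, 9.25% in CRISPR-DREAM and 6.68% in dCas9-VPR. No gene of the 7 was called higher by limma in the comparisons with the control, nor at an unadjusted p under 0.05. The median log2 fold change of the 7 genes was -0.22 in CRISPR-DREAM, -0.28 in SAM and -0.10 in dCas9-VPR, beside 0.06, 0.16 and 0.06 for all tested genes. *MVK*, the kinase that phosphorylates mevalonate, measured 30.0 and 33.5 CPM in the control, 23.6 and 24.5 CPM in CRISPR-DREAM, 21.5 and 20.3 CPM in SAM and 25.0 and 26.0 CPM in dCas9-VPR. All 6 activator libraries were below both control libraries, and SAM was lowest. The log2 fold change of *MVK* relative to the control was -0.39 ± 0.08 (adjusted p = 0.00609) in CRISPR-DREAM and -0.59 ± 0.08 (adjusted p = 0.000415) in SAM, where it was -0.75 relative to the all-gene median. In dCas9-VPR it was -0.31 ± 0.08 (adjusted p = 0.0291).

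*IDI1*, which interconverts the isomers of the isoprenoid unit, measured 79.3 and 81.7 CPM in the control, 56.0 and 58.1 CPM in CRISPR-DREAM, 55.7 and 58.3 CPM in SAM and 66.1 and 72.7 CPM in dCas9-VPR. The CRISPR-DREAM and SAM libraries shared 1 range, and dCas9-VPR fell between them and the control without overlap. The fold change was -0.49 ± 0.07 in CRISPR-DREAM (adjusted p = 0.000461), -0.49 ± 0.07 in SAM (adjusted p = 0.000324) and -0.21 ± 0.07 in dCas9-VPR (adjusted p = 0.047). *MVD*, the decarboxylase that makes that unit, measured 44.3 and 41.8 CPM in the control, 32.0 and 32.9 CPM in CRISPR-DREAM, 32.2 and 30.5 CPM in SAM and 32.5 and 35.0 CPM in dCas9-VPR. For *MVD* the CRISPR-DREAM libraries overlapped those of SAM and of dCas9-VPR, and both SAM libraries lay below both of dCas9-VPR. No activator library of *MVD* reached the control. Its fold changes were -0.40, -0.45 and -0.35 (adjusted p = 0.00283, 0.00093 and 0.0118 in CRISPR-DREAM, SAM and dCas9-VPR).

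The other genes of these steps moved less. *ACAT2*, the thiolase that joins acetyl-CoA units, fell by 0.28 on the log2 scale in SAM (adjusted p = 0.0179) and was at -0.22 in CRISPR-DREAM and -0.10 in dCas9-VPR, neither past the threshold. *PMVK*, the next kinase after *MVK*, fell by 0.17 in SAM (adjusted p = 0.0439) and was at -0.15 and -0.03 in CRISPR-DREAM and dCas9-VPR. *HMGCS1*, which makes HMG-CoA, ran from 42.7 to 51.6 CPM over the 8 libraries and was at -0.15, 0.02 and 0.00. *FDPS*, the synthase of farnesyl diphosphate, ran from 219 to 248 CPM and was at -0.05, -0.05 and 0.09 (CRISPR-DREAM, SAM and dCas9-VPR in turn). Neither *HMGCS1* nor *FDPS* passed the threshold. Under median-of-ratios scaling *HMGCS1* changed sign in SAM and dCas9-VPR, to -0.13 and -0.06. That scaling also gave lower calls for *ACAT2*, *PMVK* and *HMGCS1* in CRISPR-DREAM and for *FDPS* in SAM.

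For the squalene and lanosterol steps limma called 0 of 3 genes relative to the control in each activator group, and an unadjusted p was under 0.05 for 1 of them, *FDFT1*, in SAM. The shares of all tested genes called in either direction were 28.0%, 44.6% and 17.6% in CRISPR-DREAM, SAM and dCas9-VPR. *FDFT1*, squalene synthase, was at -0.17, -0.18 and -0.05 in CRISPR-DREAM, SAM and dCas9-VPR. *SQLE*, the squalene epoxidase, was at -0.12, -0.10 and -0.01. *LSS*, which closes the epoxide into lanosterol, was at 0.03, -0.12 and 0.06, and its sign in CRISPR-DREAM became negative (-0.03) under median-of-ratios scaling. With that scaling limma called all 3 genes lower in SAM, and none of them in CRISPR-DREAM or dCas9-VPR. The scaled SAM values were -0.33 for *FDFT1*, -0.25 for *SQLE* and -0.27 for *LSS* (adjusted p = 0.018, 0.0333 and 0.00423).

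Among the 8 steps after lanosterol, 3 genes were lower and 1 higher in CRISPR-DREAM, 4 lower and 0 higher in SAM (limma, with 1 higher at an unadjusted p under 0.05) and 2 lower and 1 higher in dCas9-VPR. The shares of all tested genes were 9.25%, 8.89% and 6.68% lower and 18.8%, 35.7% and 11% higher. The medians of the 8 genes were -0.16, -0.19 and -0.01, beside 0.06, 0.16 and 0.06 for all tested genes. *TM7SF2*, a sterol reductase that acts just after the *CYP51A1* step, was the exception in direction. It measured 31.2 and 32.9 CPM in the control, 47.2 and 48.5 CPM in CRISPR-DREAM, 36.1 and 36.2 CPM in SAM and 48.2 and 44.9 CPM in dCas9-VPR. Every activator library lay above the control, the CRISPR-DREAM and dCas9-VPR ranges overlapped, and SAM lay between. The fold change was 0.57 ± 0.07 in CRISPR-DREAM (adjusted p = 0.000261) and 0.53 ± 0.07 in dCas9-VPR (adjusted p = 0.00117). In SAM it was 0.17 ± 0.07 (adjusted p = 0.0618), or 0.01 relative to the all-gene median.

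*SC5D*, the sterol desaturase late in the pathway, measured 163 and 170 CPM in the control, 129 and 121 CPM in CRISPR-DREAM, 128 and 127 CPM in SAM and 142 and 142 CPM in dCas9-VPR. No activator library reached the control, and dCas9-VPR lay above the other systems. The fold changes were -0.41, -0.39 and -0.23 (SE 0.05; adjusted p = 0.000389, 0.000388 and 0.0161). *NSDHL*, a dehydrogenase of sterol demethylation, measured 60.4 and 65.9 CPM in the control, 49.0 and 53.0 CPM in CRISPR-DREAM, 43.8 and 49.5 CPM in SAM and 49.4 and 51.8 CPM in dCas9-VPR. The activator groups of *NSDHL* overlapped each other below the control, with fold changes of -0.30, -0.43 and -0.32 (adjusted p = 0.0167, 0.00176 and 0.0231).

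*DHCR7*, a reductase that ends the pathway, measured 112 and 113 CPM in the control, 94.6 and 103 CPM in CRISPR-DREAM, 82.2 and 86.9 CPM in SAM and 106 and 116 CPM in dCas9-VPR. The control lay within the dCas9-VPR range and SAM lay below every other library. Its fold change was -0.41 ± 0.07 in SAM (adjusted p = 0.000929), -0.18 in CRISPR-DREAM (adjusted p = 0.0669) and -0.02 in dCas9-VPR (95% interval -0.16 to 0.13). Of the differences between systems, that of SAM relative to dCas9-VPR passed the threshold (-0.39, adjusted p = 0.00203), while those of CRISPR-DREAM relative to SAM (0.23, adjusted p = 0.0544) and relative to dCas9-VPR (-0.16, adjusted p = 0.134) did not. *HSD17B7*, a sterol ketoreductase, fell by 0.41 in CRISPR-DREAM (adjusted p = 0.00643) and by 0.24 in SAM (adjusted p = 0.0435), and was at -0.14 in dCas9-VPR. A transcribed pseudogene of it, *HSD17B7P2*, was listed at 0.234 to 3.43 CPM, and how the authors' counting divided reads between the pair is not given in the sources used here.

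*CYP51A1*, the lanosterol demethylase, was at -0.14, -0.14 and 0.06, *MSMO1*, a methylsterol oxidase, at -0.06, -0.11 and 0.00, and *EBP*, a sterol isomerase, at -0.11, -0.08 and 0.01 in CRISPR-DREAM, SAM and dCas9-VPR. None of these passed the threshold. With median-of-ratios scaling *CYP51A1* was called lower in CRISPR-DREAM and SAM (-0.20 and -0.29, adjusted p = 0.0175 and 0.00224). *MSMO1* was then called lower in SAM (-0.26, adjusted p = 0.0239), and *EBP* was called in no system.

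**Figure D3:**
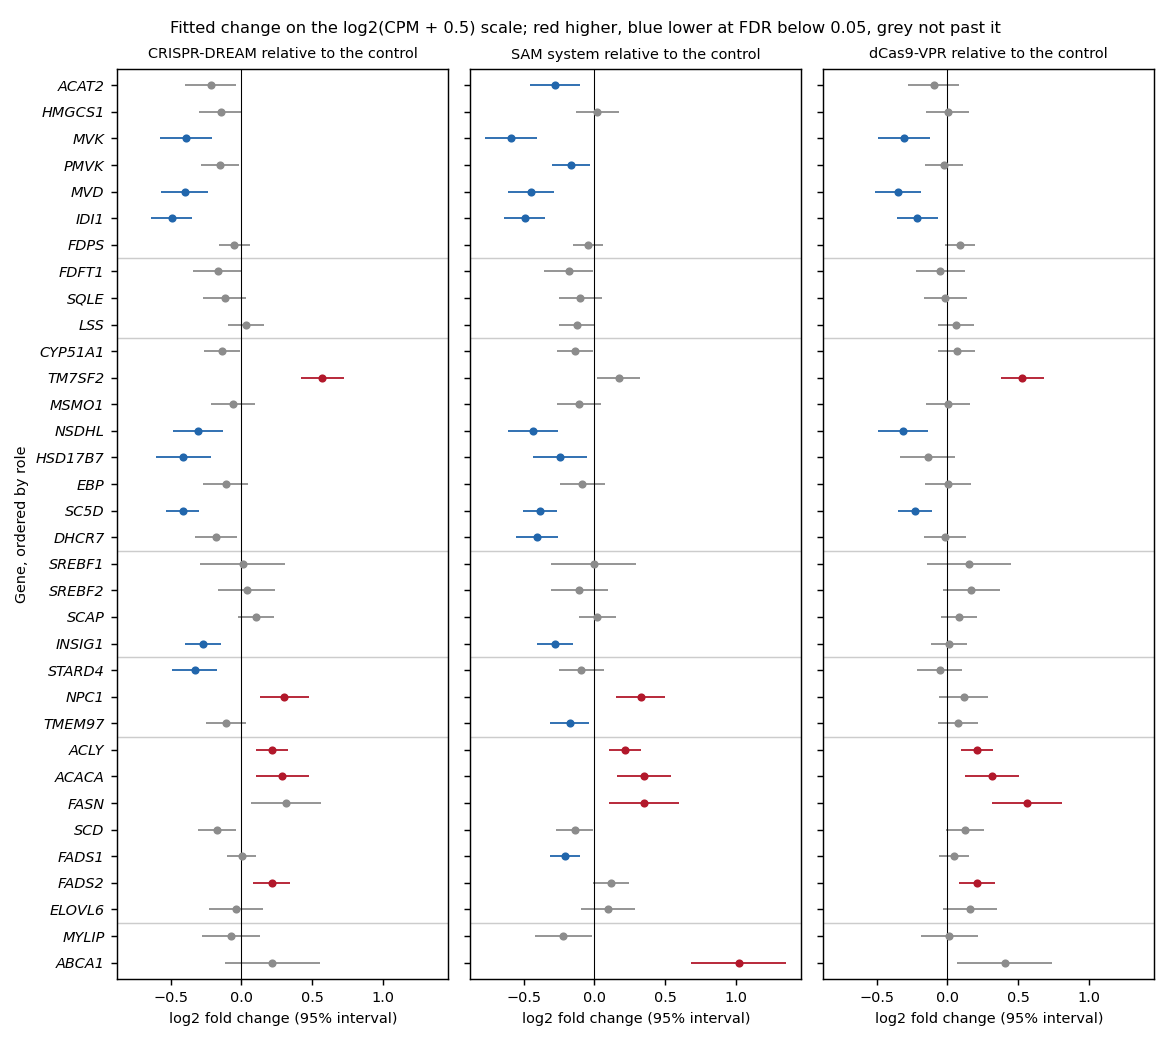
Fitted log2 fold change (x axis, log2(CPM + 0.5) scale, bars are 95% intervals) of each gene (y axis, in the order of its role) relative to the control in CRISPR-DREAM, SAM and dCas9-VPR. Red genes were higher and blue genes lower at an FDR below 0.05, 5 and 8 in CRISPR-DREAM, 5 and 12 in SAM and 5 and 5 in dCas9-VPR.

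Of the 4 genes of SREBP and its control, *INSIG1* was the 1 called, lower in CRISPR-DREAM and SAM. Limma called 0 of 4 in dCas9-VPR, with 0 also at an unadjusted p under 0.05. The shares of all tested genes called in either direction were 28.0%, 44.6% and 17.6% in CRISPR-DREAM, SAM and dCas9-VPR. *INSIG1*, which holds the SCAP and SREBP complex in the endoplasmic reticulum and is itself an SREBP target, measured 189 and 174 CPM in the control, 151 and 149 CPM in CRISPR-DREAM, 151 and 148 CPM in SAM and 177 and 189 CPM in dCas9-VPR. CRISPR-DREAM and SAM lay together below the control, and dCas9-VPR lay within the control range. The fold changes were -0.27 ± 0.06 (adjusted p = 0.00563) and -0.28 ± 0.06 (adjusted p = 0.00299), and 0.01 in dCas9-VPR (95% interval -0.12 to 0.14).

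*SREBF2*, the gene of SREBP-2, measured 151 and 150 CPM in the control, 170 and 142 CPM in CRISPR-DREAM, 152 and 129 CPM in SAM and 167 and 173 CPM in dCas9-VPR. The CRISPR-DREAM and SAM libraries straddled the control, and the fold changes were 0.04, -0.11 and 0.17, none past the threshold (adjusted p = 0.784, 0.359 and 0.215). *SREBF1*, the gene of SREBP-1, ran from 28.6 to 37.5 CPM and was at 0.01, -0.01 and 0.15. *SCAP*, the sterol-sensing escort of the SREBP proteins, ran from 160 to 185 CPM and was at 0.10, 0.02 and 0.08. The signs of *SREBF1* and *SREBF2* in CRISPR-DREAM and of *SCAP* in SAM turned under median-of-ratios scaling. With that scaling *SREBF2* was called lower in SAM (-0.26, adjusted p = 0.0287).

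In sterol traffic, *NPC1*, which exports cholesterol from lysosomes, ran from 63.9 to 70.4 CPM in control libraries and from 77.2 to 88.9 CPM over those of CRISPR-DREAM and SAM, with no overlap. Its fold change was 0.30 (adjusted p = 0.016) in CRISPR-DREAM, 0.33 (adjusted p = 0.00722), or 0.16 relative to the all-gene median, in SAM and 0.12 (adjusted p = 0.326) in dCas9-VPR, and with median-of-ratios scaling the SAM call was lost. *STARD4*, a cytosolic sterol carrier, measured 37.2 and 39.7 CPM in the control, 29.3 and 31.7 CPM in CRISPR-DREAM, 36.3 and 35.8 CPM in SAM and 36.9 and 37.0 CPM in dCas9-VPR. *STARD4* was called lower in CRISPR-DREAM, with a fold change of -0.33 ± 0.07 (adjusted p = 0.0072), and was at -0.09 and -0.06 in SAM and dCas9-VPR. The SAM libraries also lay below the control, and with median-of-ratios scaling *STARD4* was called lower there (-0.24, adjusted p = 0.0327). Its difference between CRISPR-DREAM and SAM did not pass the threshold (-0.24, adjusted p = 0.0601). *TMEM97*, an endoplasmic reticulum protein that binds NPC1, fell by 0.18 in SAM (adjusted p = 0.0435) and was at -0.11 in CRISPR-DREAM and 0.08 in dCas9-VPR.

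Of the 7 genes of fatty acid synthesis, 3 were higher and 0 lower in CRISPR-DREAM (limma, 1 lower at an unadjusted p under 0.05), 3 higher and 1 lower in SAM, and 4 higher and 0 lower in dCas9-VPR (0 lower at an unadjusted p under 0.05). The shares of all tested genes called higher were 18.8%, 35.7% and 11%, and the medians of the 7 genes were 0.21, 0.12 and 0.21 beside 0.06, 0.16 and 0.06 for all tested genes, so in SAM the median of the 7 lay below that of all genes. With median-of-ratios scaling *ACACA* alone of the 7 was called higher in SAM (0.20, adjusted p = 0.0474), and *SCD* and *FADS1* were called lower there (-0.29 and -0.36). The summed CPM of the 7 genes was 1291 and 1231 in the control, 1341 and 1269 in CRISPR-DREAM, 1296 and 1290 in SAM and 1429 and 1446 in dCas9-VPR, so that CRISPR-DREAM overlapped the control, the lower SAM library was within it, and dCas9-VPR lay above it. *FASN*, the fatty acid synthase, measured 111 and 85.2 CPM in the control, 128 and 114 CPM in CRISPR-DREAM, 130 and 118 CPM in SAM and 148 and 140 CPM in dCas9-VPR. All activator libraries lay above the control, whose libraries were the farthest apart, and dCas9-VPR was highest. The fold change was 0.56 ± 0.11 in dCas9-VPR (adjusted p = 0.00968), 0.35 ± 0.11 in SAM (adjusted p = 0.0277) and 0.31 ± 0.11 in CRISPR-DREAM (adjusted p = 0.0601). The SAM value was 0.19 relative to the all-gene median, and that call was lost with median-of-ratios scaling. The call in dCas9-VPR was lost without control replicate 2 and without dCas9-VPR replicate 1.

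*ACLY*, which makes cytosolic acetyl-CoA from citrate for both pathways, measured 337 and 338 CPM in the control, 390 and 396 CPM in CRISPR-DREAM, 375 and 410 CPM in SAM and 383 and 398 CPM in dCas9-VPR. The activator groups overlapped each other above the control. Its fold changes were 0.22, 0.22 and 0.21 (SE 0.05; adjusted p = 0.0107, 0.00741 and 0.0222), but with median-of-ratios scaling each of these calls was lost, and the SAM value was 0.05 relative to the all-gene median. *ACACA*, the acetyl-CoA carboxylase that commits carbon to fatty acids, measured 64.2 and 57.5 CPM in the control, 80.5 and 68.8 CPM in CRISPR-DREAM, 81.4 and 74.1 CPM in SAM and 76.4 and 75.0 CPM in dCas9-VPR. No *ACACA* library of an activator reached down to the control, and the fold changes were 0.29, 0.35 and 0.32 (adjusted p = 0.0286, 0.00778 and 0.0308), the SAM value being 0.19 relative to the all-gene median.

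*SCD*, the stearoyl-CoA desaturase and the highest of the 34 genes per kilobase, measured 527 and 490 CPM in the control, 475 and 428 CPM in CRISPR-DREAM, 472 and 450 CPM in SAM and 546 and 564 CPM in dCas9-VPR. CRISPR-DREAM and SAM lay below the control and dCas9-VPR above it, and none of the 3 differences passed the threshold (-0.17, -0.14 and 0.13, adjusted p = 0.056, 0.0815 and 0.164). With median-of-ratios scaling it was called lower in CRISPR-DREAM (-0.23, adjusted p = 0.0114) and in SAM (-0.29, adjusted p = 0.0029). *FADS1*, a desaturase of polyunsaturated fatty acids, measured 180 and 186 CPM in the control, 184 and 183 CPM in CRISPR-DREAM, 158 and 159 CPM in SAM and 191 and 187 CPM in dCas9-VPR. It was low in SAM, at -0.21 ± 0.05 (adjusted p = 0.00557). Its neighbour *FADS2* encodes the desaturase of the preceding step and was at 0.21, 0.12 and 0.21 (adjusted p = 0.0199, 0.118 and 0.0324), with both calls lost under median-of-ratios scaling. *FADS1* and *FADS2* overlap on opposite strands of chromosome 11 by 29692 bases in the files' gene intervals, and whether the counting used strand is not given in the sources used here, so the values of this pair are uncertain. *FADS2* also shares 4259 bases on its own strand with *FEN1*, which was at 136 to 188 CPM where *FADS2* was at 54.5 to 64.8 CPM, an overlap that strand does not resolve. In all, 15 of the 34 genes share bases with a gene on the opposite strand. *ELOVL6*, a fatty acid elongase, ran from 17.0 to 20.3 CPM and was at -0.04, 0.10 and 0.16, none past the threshold and with the SAM sign turned under that scaling.

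Of the LXR targets, *ABCA1*, the pump that exports cholesterol to lipoproteins, showed the widest change of the 34 genes. It measured 2.33 and 1.89 CPM in the control, 2.75 and 2.32 CPM in CRISPR-DREAM, 4.52 and 5.06 CPM in SAM and 3.01 and 2.89 CPM in dCas9-VPR. SAM stood above every other library, CRISPR-DREAM overlapped the control, and dCas9-VPR lay between. The fold change was 1.02 ± 0.15 in SAM (adjusted p = 0.000569), or 0.86 relative to the all-gene median, and 0.22 (adjusted p = 0.308) and 0.41 (adjusted p = 0.0885) in CRISPR-DREAM and dCas9-VPR. It sat at the edge of the threshold of a fold change of 2, as leaving out 1 library moved it between 0.90 and 1.14. *MYLIP*, a ubiquitin ligase for lipoprotein receptors and the other LXR target, was at -0.07, -0.22 and 0.01, none past the threshold. Both SAM libraries of *MYLIP* lay below the control, opposite in direction to *ABCA1*. With median-of-ratios scaling *MYLIP* was called lower in SAM (-0.36, adjusted p = 0.0125).

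**Figure D4:**
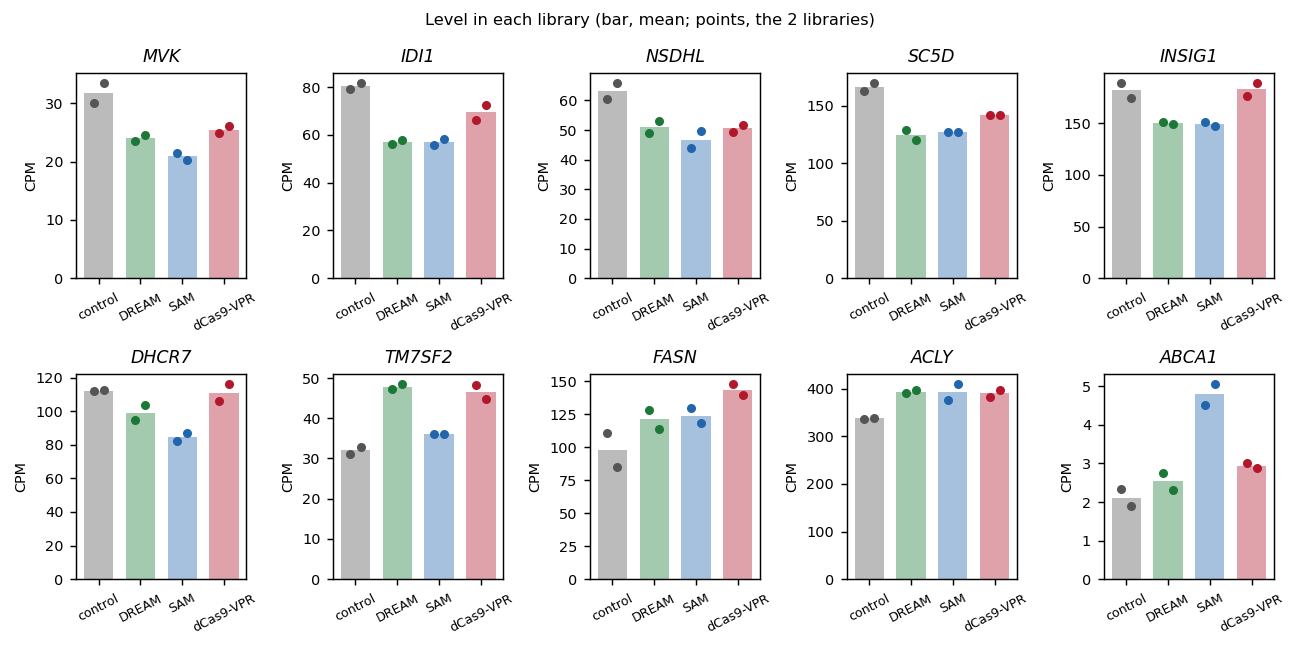
CPM (y axes, each from 0) of 10 genes in the control, CRISPR-DREAM, SAM and dCas9-VPR (x axes), with bars for the mean and points for the 2 libraries. *MVK*, *IDI1*, *NSDHL* and *SC5D* are lower than the control in each system, *TM7SF2* rises to 47.2 and 48.5 CPM in CRISPR-DREAM, and *ABCA1* to 4.52 and 5.06 CPM in SAM.

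The systems were then set against each other in the same fit. Between CRISPR-DREAM and SAM, 2 of the 34 genes were higher in CRISPR-DREAM and 1 was lower, beside 1.59% and 9.14% of all tested genes. *TM7SF2* was higher by 0.40 ± 0.07 (adjusted p = 0.00987) and *FADS1* by 0.21 ± 0.05 (adjusted p = 0.0231), while *ABCA1* was lower, at -0.80 ± 0.15 (adjusted p = 0.0135). The ranges of CRISPR-DREAM and SAM were apart for each of these genes. The median of the 34 genes was 0.01 and that of all tested genes -0.09, and with median-of-ratios scaling 4 genes were higher and 1 lower. For *IDI1* the difference was 0.00, with a 95% interval of -0.14 to 0.15, and for *INSIG1* 0.01, with an interval of -0.12 to 0.13. No member passed a fold change of 2 with an FDR below 0.05 (limma, 0 of 34, beside 0.721% of all tested genes, with 5 higher and 3 lower at an unadjusted p under 0.05). These calls were few and fell to 0 without SAM replicate 1 or without SAM replicate 2, and to 1 without DREAM replicate 2.

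Relative to dCas9-VPR, 6 of the 34 genes were lower in CRISPR-DREAM and 0 were higher, beside 5.21% and 7.9% of all tested genes, and 1 was higher at an unadjusted p under 0.05 in limma. *SCD* differed most, at -0.30 ± 0.06 (adjusted p = 0.0111), followed by *INSIG1* at -0.28 ± 0.06 (adjusted p = 0.011) and *IDI1* at -0.28 ± 0.07 (adjusted p = 0.0206). *STARD4* was at -0.27 ± 0.07 (adjusted p = 0.033), *SC5D* at -0.18 ± 0.05 (adjusted p = 0.0469) and *CYP51A1* at -0.20 ± 0.06 (adjusted p = 0.0446). *CYP51A1* was at 104 and 96.8 CPM in CRISPR-DREAM and 119 and 112 CPM in dCas9-VPR, and for each of these 6 genes both CRISPR-DREAM libraries lay below both dCas9-VPR libraries. The median of the 34 genes was -0.12 beside 0.02 for all tested genes. No member passed a fold change of 2 with an FDR below 0.05 (limma, 0 of 34, beside 0.734% of all tested genes, with 11 lower and 1 higher at an unadjusted p under 0.05). With only the 4 libraries of these groups in the fit 2 genes were called, and without dCas9-VPR replicate 1 or without dCas9-VPR replicate 2 the count was 0.

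Relative to dCas9-VPR, 12 of the 34 genes were lower in SAM and 1 was higher, beside 6.32% and 23.6% of all tested genes. *ABCA1* was the higher gene, by 0.62 ± 0.15 (adjusted p = 0.0121). The largest lower differences were those of *DHCR7* (-0.39 ± 0.07, adjusted p = 0.00203) and *TM7SF2* (-0.36 ± 0.07, adjusted p = 0.00351). *INSIG1* was at -0.29 ± 0.06 (adjusted p = 0.00404), *MVK* at -0.28 ± 0.08 (adjusted p = 0.0265) and *IDI1* at -0.28 ± 0.07 (adjusted p = 0.0093). *SREBF2*, *SCD*, *FADS1*, *TMEM97*, *CYP51A1*, *LSS* and *SC5D* made up the rest, from -0.28 to -0.16. The median of the 34 genes was -0.14 beside 0.10 for all tested genes. No member passed a fold change of 2 with an FDR below 0.05 (limma, 0 of 34, beside 2.31% of all tested genes, with 16 lower and 2 higher at an unadjusted p under 0.05). Without SAM replicate 1 the calls were 8, without SAM replicate 2 they were 5, without dCas9-VPR replicate 1 they were 6, and without dCas9-VPR replicate 2 they were 4.

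Other genes of the pathway were counted by role. Of all tested genes, 18.8% were higher and 9.25% lower in CRISPR-DREAM, 35.7% and 8.89% in SAM, and 11% and 6.68% in dCas9-VPR. Of 12 tested genes that process SREBP or degrade its regulators, 4 were higher in CRISPR-DREAM, 4 in SAM and 1 in dCas9-VPR, which is 33.3%, 33.3% and 8.33% of the list, at or below the share of all genes in SAM and dCas9-VPR (median log2 fold change 0.14, 0.19 and 0.14, beside 0.06, 0.16 and 0.06 for all tested genes). *SEC23A*, a coat protein of the vesicles that carry SCAP to the Golgi, was at 0.34 in SAM and 0.21 in dCas9-VPR. Of 13 genes of the isoprenoid branches, 1 was higher in CRISPR-DREAM (*RCE1*, a protease of prenylated proteins, 0.29), 3 were higher and 2 lower in SAM, and 1 was higher in dCas9-VPR (*ERG28*, a scaffold of sterol enzymes, 0.26). The shares higher, 7.69% in CRISPR-DREAM and 7.69% in dCas9-VPR, were below those of all genes, and the medians of this list were 0.02, 0.09 and 0.00.

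Of 30 tested genes of fatty acid and glycerolipid handling, 6 were higher and 3 lower in CRISPR-DREAM, 9 higher and 6 lower in SAM and 5 higher and 1 lower in dCas9-VPR, with medians of 0.01, 0.04 and 0.06 beside 0.06, 0.16 and 0.06 for all tested genes. The shares called in either direction, 30%, 50% and 20%, stood beside 28.0%, 44.6% and 17.6% of all tested genes, near the background. *AGPAT2*, an acyltransferase of phosphatidic acid synthesis, rose from 56.4 and 54.7 CPM in control libraries to 91.2 and 105 CPM in those of CRISPR-DREAM, a log2 fold change of 0.81 (adjusted p = 3.73e-05). *ACSL4*, which activates polyunsaturated fatty acids, was higher in CRISPR-DREAM (0.42) and SAM (0.63). *DGAT2*, which makes triglyceride, was lower in both (-0.36 and -0.44), as was *MID1IP1*, an activator of acetyl-CoA carboxylase, in CRISPR-DREAM (-0.34).

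Of 24 tested genes of sterol uptake, storage and efflux, 9 were higher and 2 lower in CRISPR-DREAM, 13 higher and 2 lower in SAM and 6 higher and 1 lower in dCas9-VPR, with medians of 0.19, 0.19 and 0.20 beside 0.06, 0.16 and 0.06 for all tested genes. The shares called in either direction were 45.8%, 62.5% and 29.2%, beside 28.0%, 44.6% and 17.6% of all tested genes. Those of all tested genes called higher were 18.8%, 35.7% and 11%, and lower 9.25%, 8.89% and 6.68%. In SAM the median of the list was near that of all genes. *LRP1*, a lipoprotein receptor, measured 16.7 and 10.2 CPM in the control, 31.1 and 27.2 CPM in CRISPR-DREAM, 32.4 and 27.1 CPM in SAM and 21.5 and 20.1 CPM in dCas9-VPR. The control libraries of *LRP1* were far apart and every activator library lay above them, with log2 fold changes of 1.13, 1.15 and 0.65. *NCEH1*, a cholesterol ester hydrolase, was higher as well (0.77, 0.71 and 0.40). *STARD5*, a sterol carrier, was lower (-0.56, -0.55 and -0.47), and *VLDLR*, another lipoprotein receptor, was lower in CRISPR-DREAM and SAM (-0.30 in each).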

How the data were processed

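RNA was sequenced in 8 libraries, with groups and replicate numbers taken from the sample labels. The authors aligned reads to hg38 with STAR 2.7.3a and used DESeq2 3.5 (versions per the submitters' processing notes), and deposited CPM per gene, which sum to the same total over each file's genes and carry an added 0.0001. Whether strand was used in counting is not given in the sources used here. The deposited CPM are not counts, and whole multiples of 1 read (within 0.05 reads) made up only 65.0% to 69.9% of the low values, so no count model was run. The estimated depths of 28.4 to 35.1 M reads limit precision by counting error only.

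The main test was limma (3.58.1, under R 4.3.3) on log2(CPM + 0.5), using its robust and trend settings, a coefficient for each group over all 8 libraries, 4 residual degrees of freedom, 6 comparisons and Benjamini-Hochberg adjustment over the 15122 genes tested. Exonic lengths came from Gencode release 44 and promoter windows from RefSeq, read with Python 3.11.15 and pandas 2.3.3. Alternatives were pseudocounts of 0.1 and 1, no filter, median-of-ratios scaling, only the 4 libraries compared, a replicate block, no trend or robust option, and leaving out each library.

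Members and lists were chosen with earlier results of these data known. All members are named by role. By the rule for named genes, full statistics were given for members past an FDR of 0.05 with an absolute log2 fold change of at least 0.5 relative to the control, and for the up to 6 largest called differences between systems. Further members have their values and, where a call is stated, an adjusted p. In other lists up to 2 genes per direction are named.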

Additional observations from a re-analysis of the deposited data

How the results depend on the processing

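Every call at an FDR below 0.05 kept its sign under the 11 alternatives of its comparison. The call itself was kept under all 11 for 4 of 13 genes in CRISPR-DREAM (*MVD*, *IDI1*, *TM7SF2* and *SC5D*), 8 of 17 in SAM (*MVK*, *MVD*, *IDI1*, *NSDHL*, *SC5D*, *DHCR7*, *INSIG1* and *ABCA1*) and 1 of 10 in dCas9-VPR (*TM7SF2*). Between systems it was kept for 0 of 3 genes for CRISPR-DREAM and SAM, 0 of 6 for CRISPR-DREAM and dCas9-VPR and 3 of 13 for SAM and dCas9-VPR (*TM7SF2*, *DHCR7* and *FADS1*). Leaving out 1 library in turn, the members called ranged from 5 to 15 in CRISPR-DREAM, from 9 to 15 in SAM and from 1 to 6 in dCas9-VPR, all relative to the control. The ranges were 0 to 4 for CRISPR-DREAM relative to SAM, 0 to 5 for CRISPR-DREAM relative to dCas9-VPR and 4 to 8 for SAM relative to dCas9-VPR. The lone library of a group was then assumed to vary like the other groups, and fewer libraries entered each fit. With a fold change above 2 the count in SAM ranged from 0 to 1, and it was 0 with a pseudocount of 1 and 0 with median-of-ratios scaling, under which *ABCA1* was at 0.90 and 0.89. Median-of-ratios scaling gave 5 called members for CRISPR-DREAM relative to SAM. Without the trend and robust options the counts were 3 in dCas9-VPR relative to the control and 0 for CRISPR-DREAM relative to dCas9-VPR, and with only the 4 libraries compared the latter was 2. The cause of these changes was not tested.

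With a replicate block the counts rose to 23 in CRISPR-DREAM relative to the control, 8 for CRISPR-DREAM relative to SAM, 14 for CRISPR-DREAM relative to dCas9-VPR and 20 for SAM relative to dCas9-VPR, and were 22 in SAM and 12 in dCas9-VPR relative to the control. *SCD*, not called without the block, then passed in each comparison with the control (adjusted p = 0.00131, 0.00481 and 0.0161 in limma for CRISPR-DREAM, SAM and dCas9-VPR). Deviations of same-numbered libraries from their group means correlated at 0.133 to 0.326 across 15122 genes, a hint from the data only, as the labels do not say what the replicate numbers share.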
